A study of Homo sapiens with 6 samples.

Results

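The Hi-C map of OE33, a cell line derived from an esophageal adenocarcinoma, was compared with the maps of 3 other cancer lines. Hi-C joins and sequences pieces of DNA that lay close together in the nucleus, so each read pair records a contact between a pair of places in the genome. All pairs of different 40-kb bins on the same autosome were taken from the OE33 map, which gave 22898230 bin pairs of the 127644757 in the 6 maps of the series. Pairs on different autosomes were taken as well, where the map of the other line held them.

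The series was made by in situ Hi-C with the enzyme MboI on cells of 4 lines, and its pairs were placed on the human genome build hg19. OE33 was set against SW480 and SNU-C1, both from colorectal adenocarcinomas, and HCC1954, from a breast adenocarcinoma. Each line had 1 map, and SW480 also had 2 replicate maps, whose summed depth is close to that of its map without a replicate number. No treatment, passage or clone was given for any line, and the labelled cell types could not be checked by markers because Hi-C measures no RNA.

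A chromosome in the nucleus is folded on several scales. Contact frequency falls with distance along the chromosome, and the way it falls depends on how compact the chromosome is. On the scale of megabases, stretches that are rich in active genes (compartment A) meet one another, and gene-poor, often heterochromatic stretches (compartment B) meet one another. On a finer scale, domains are separated by boundaries, often held by CTCF and cohesin, across which contacts are depleted. Gains, losses and joins of chromosome pieces in a cancer genome are seen in the same maps, since they change which DNA lies next to which and how many copies are read.

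The OE33 map held 87123995 recovered read pairs within chromosomes, against 128105716 for SW480, 111654971 for SNU-C1 and 89618230 for HCC1954. The SW480 replicates held 63516296 and 64860535. Of 72036 bins, 62198 were usable in all 4 lines. Pairs between chromosomes made up 35.9% of the read pairs of OE33, 14.4% of those of SNU-C1 and 19% of those of HCC1954, and the SW480 maps held too few for comparison. The maps of OE33, SNU-C1 and HCC1954 were corrected over the whole genome, whereas those of SW480 were corrected within each chromosome: the summed values of bins on the same chromosome had a median CV of 1.94% in SW480 and 15.7% in OE33. The methods of the study state that the Hi-C was run in duplicate, and separate replicate maps of OE33, SNU-C1 and HCC1954 were not analysed here. With 1 map for each line, no difference between OE33 and another line has a replicate check, and no test was made. The spread between the SW480 replicates is given beside the values as a measure of technical and culture variation. Each other line was also put through the rule that was used for OE33, with a limit on block losses that is given with them.

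OE33 held more contacts over long distances than the other lines. Pairs over 20 Mb apart made up 13.6% of its contacts within chromosomes, against 10.4% in SW480, 7.81% in SNU-C1 and 9.08% in HCC1954. The SW480 replicates gave 10.4% each, so the distance of OE33 from the nearest line was far larger than the spread between replicates. Contacts over the shortest distances, 40 to 200 kb, were in turn the lowest in OE33, at 33.6%, against 34.9% in SW480, 39.6% in SNU-C1 and 35.9% in HCC1954. The median distance of a contact was 0.56 Mb in OE33 and lay between 0.36 and 0.52 Mb in the other lines.

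The difference opened at distances above 10 Mb. At 10 Mb the contact frequency of OE33 lay between 0.94 and 1.08 times that of the other lines, within their range. By 20 Mb it was 1.16 to 1.27 times theirs, at 50 Mb 1.36 to 1.96 times and at 100 Mb 1.26 to 2.18 times. Replicate 2 of SW480 over replicate 1 gave 1.008 at 20 Mb, 1.009 at 50 Mb and 1.004 at 100 Mb. The slope of the curve between 10 and 50 Mb, on logarithmic axes, was -0.79 in OE33 and steeper in SW480 (-1.06), SNU-C1 (-1.27) and HCC1954 (-1.05). Between 0.5 and 5 Mb the slope of OE33 was -1.30 and lay beside that of SW480, at -1.30. The share of pairs between chromosomes, which were also more frequent in OE33, moved with the long-range share, and its part in the result was not tested.

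**Figure D1:**
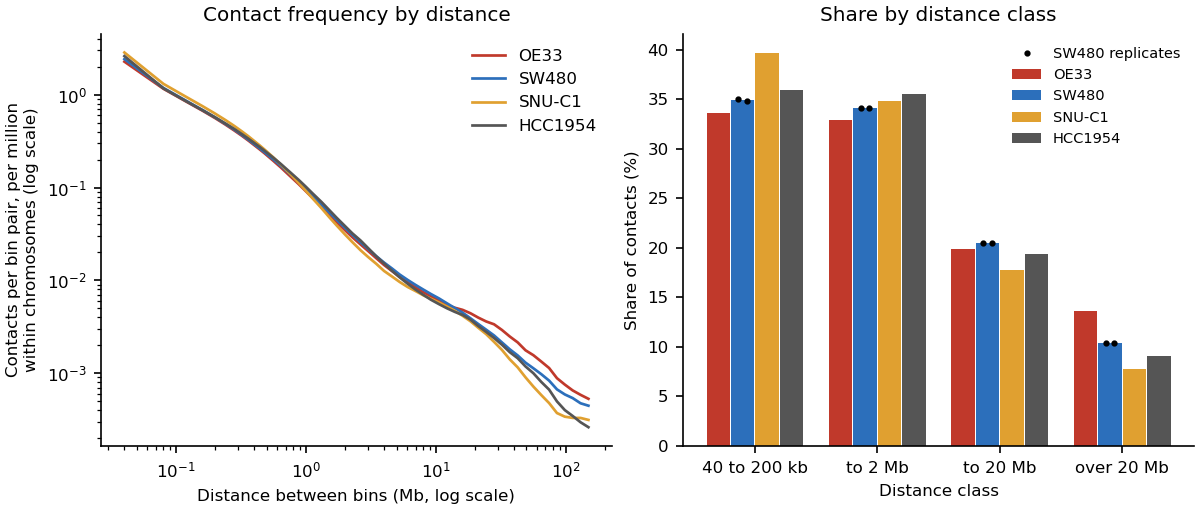
Contact frequency within chromosomes against distance on logarithmic axes (left, contacts per bin pair scaled to the contacts of each map) and the share of contacts in 4 distance classes (right, %), with SW480 replicates as black points. OE33 runs above the other lines beyond 20 Mb, and its share over 20 Mb is 13.6% against 7.81% to 10.4%.

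The plaid pattern of the compartments was sharper in OE33 than in the other lines. Compartments were scored on 200-kb blocks within chromosome arms, and the contact of blocks at the extremes of the score was compared with the contact expected at their distance. Blocks of B met one another at 2.82 times the expected contact in OE33, against 1.93 in SW480, 1.77 in SNU-C1 and 2.01 in HCC1954. Contact between A and B was the lowest in OE33, at 0.281 times the expected value, against 0.411, 0.432 and 0.543 in the same order. Contact among A blocks did not share the rise. It was 1.06 in OE33, below SW480 (1.21), SNU-C1 (1.12) and HCC1954 (1.08).

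The ratio of contact within compartments to contact between them, called the compartment strength, was 6.90 in OE33. It was 3.83 in SW480, with 3.84 and 3.83 in its replicates, 3.34 in SNU-C1 and 2.85 in HCC1954. OE33 had the highest strength in 37 of 39 chromosome arms, the exceptions being 19p and 20p. At 2 to 10 Mb the strength was 6.15 in OE33 against 2.64 to 3.35 in the other lines, and beyond 30 Mb it was 9.30 against 4.002 to 5.92. The sharper pattern was therefore present at short and long range. In the recovered read pairs, without the correction of the authors, the strength was 5.85 in OE33 and 3.53, 3.17 and 2.46 in SW480, SNU-C1 and HCC1954.

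Contacts between chromosomes did not show the same order. A strength computed over blocks on different chromosomes, a measure chosen after its values were seen, was 1.99 in OE33, 2.87 in SNU-C1 and 2.34 in HCC1954. Contact between A and B blocks on different chromosomes was the highest in OE33, at 0.724 times the expected value, against 0.534 in SNU-C1 and 0.607 in HCC1954. The part of the larger share of pairs between chromosomes in OE33 in these values was not tested.

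**Figure D2:**
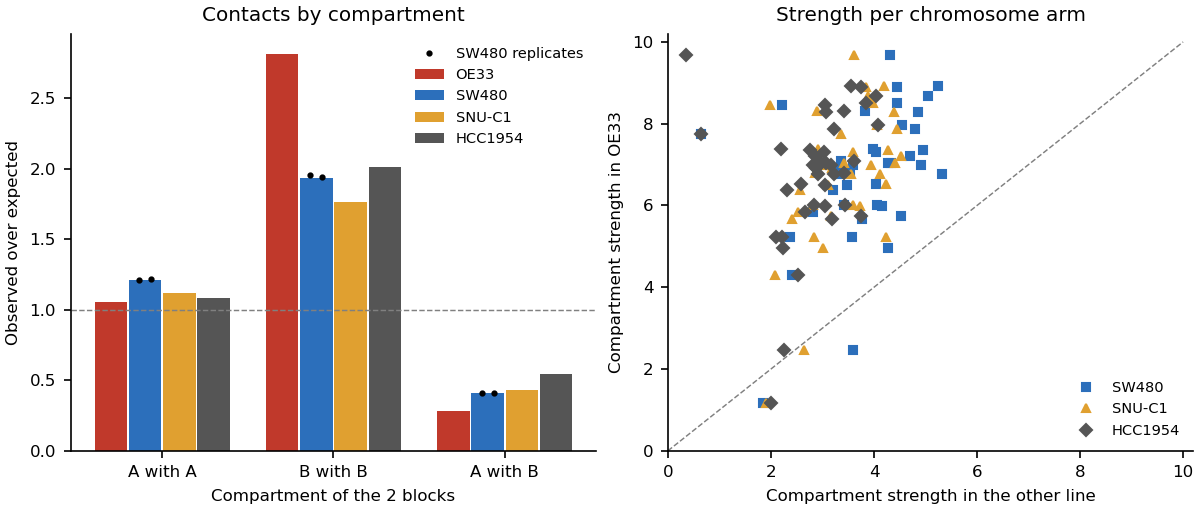
Contact of extreme A and B blocks as observed over expected (left, with SW480 replicates as black points and the expected value as a dashed line) and compartment strength of OE33 against each other line for 39 chromosome arms (right, equality dashed). B blocks meet at 2.82 in OE33, and all but 19p and 20p lie above equality with every line.

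Few blocks changed compartment in OE33 alone. Of 12511 scored blocks, 46.4% were in A in OE33, against 50.8% in SW480, 44.9% in SNU-C1 and 50.4% in HCC1954. OE33 was in A where the other 3 lines were in B at 82 blocks (0.655%), and in B where they were in A at 137 blocks (1.1%). By the same rule SW480 gave 349 and 121 blocks, SNU-C1 144 and 299, and HCC1954 422 and 179, so the count for OE33 was below or within those of the other lines. On some arms the score of another line did not separate compartments. The ratio of contact within compartments to contact between them was 0.644 in SW480 and 0.635 in HCC1954 on 11p, and 0.36 in HCC1954 on 21q. Such arms were kept in these counts, and their part in the order of the lines was not tested. The split of OE33 turned with the values used: the recovered read pairs gave 222 blocks to A and 138 to B. The switched blocks of OE33 fell in 58 runs to A, 41 of them single blocks, and 93 runs to B, 68 of them single blocks.

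The 5 longest runs to B lay on chromosomes 19, 5, 6 and 2. On chromosome 5, 66.6 to 67.6 Mb, the block scores were -0.84 in OE33 against 0.63, 0.59 and 0.37 in SW480, SNU-C1 and HCC1954, and the run holds the start of PIK3R1, the regulatory subunit of PI3-kinase. Its coverage was close to that of the other lines, at 1.02 times their median. On chromosome 2, 204.8 to 205.6 Mb, OE33 scored -0.84 against 1.01, 0.32 and 0.53 over ICOS, a T cell costimulator, and PARD3B, a polarity protein. Of the runs on chromosome 6, 40.4 to 41.4 Mb scored -0.61 against 0.78, 0.51 and 1.03 and holds UNC5CL, TSPO2 and APOBEC2 among 12 genes, and 52.4 to 53.4 Mb scored -0.28 against 0.77, 0.53 and 1.37 and holds FBXO9 and CILK1 among 13. The longest run, on chromosome 19 at 3.4 to 4.6 Mb with DAPK3, EEF2 (elongation factor of translation) and PIAS4, scored -1.13 against 0.79, 0.52 and 0.81. It lies on 19p, where the score of OE33 correlated with those of the other lines at only -0.126 to 0.398 and its compartment strength, 1.17, was the lowest of its arms, and its coverage was 2.58 times that of the others.

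Of the 5 longest runs to A, 2 held no start of a protein-coding gene. The longest, on chromosome 13 at 104.4 to 105.4 Mb, scored 0.46 in OE33 and -1.13, -1.32 and -0.89 in SW480, SNU-C1 and HCC1954, and is 1 of these 2. On chromosome 8, 129.8 to 130.4 Mb scored 0.40 against -0.67, -1.11 and -0.74 and is the other, and 133.0 to 133.6 Mb scored 0.22 against -0.72, -0.63 and -0.73 over HHLA1 and KCNQ3, a potassium channel subunit. On chromosome 12, 19 to 19.6 Mb scored 0.38 against -0.74, -0.82 and -1.71 over PLEKHA5 and AEBP2, a cofactor of a Polycomb complex. A run over KIF18A, a mitotic kinesin, and METTL15 at 27.8 to 28.4 Mb of chromosome 11 scored 0.54 against -0.97, -0.72 and -0.49, but lies on 11p, where the scores of some lines correlated below 0.5. In none of these runs did the scores of the SW480 replicates reach the side of OE33.

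A pair of shorter runs, chosen after their values were seen, hold a single gene each. NTRK2, a neurotrophin receptor, lies in a run to B on chromosome 9 (87.2 to 87.8 Mb) with a score of -1.50 in OE33 against 0.62, 1.05 and 0.28. PPARGC1A, a coactivator of mitochondrial genes, lies in a run to A on chromosome 4 (23.8 to 24.2 Mb) with 0.41 against -1.12, -1.30 and -0.90. The coverage of OE33 was 0.504 times that of the others at the first and 1.298 times at the second.

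In the corrected maps insulation varied more along the genome in OE33 than in the other lines. The insulation score is the log2 of the contact across a bin, within 1 Mb, relative to its chromosome, so a low score marks a place that few contacts cross. Its SD over 59298 bins was 0.533 in OE33, 0.374 in SW480, 0.413 in SNU-C1 and 0.444 in HCC1954, with 0.375 and 0.374 in the SW480 replicates. This order did not hold in the recovered read pairs, without the correction, where the SD was 0.507 in OE33, 0.472 in SW480, 0.499 in SNU-C1 and 0.656 in HCC1954. Mean scores were -0.33 in A and 0.11 in B of OE33, a gap of 0.44, against gaps of 0.17, 0.27 and 0.31 in SW480, SNU-C1 and HCC1954. Across bins, which are not independent, the score of OE33 correlated with those of the other lines at 0.837 to 0.865, the other lines among themselves at 0.861 to 0.895, and the SW480 replicates at 0.997.

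Most of the bins that stood apart were lower in OE33. The score was at least 0.5 below that of every other line in 1002 bins (1.69%) and at least 0.5 above in 264 (0.445%). SW480 gave 64 lower and 80 higher bins by the same rule, SNU-C1 80 and 14, and HCC1954 494 and 19. Of the lower bins of OE33, 83.2% lay in A, against 46.0% of all bins, and of the higher bins 21.3%. Chromosomes 7 (230 of 3446 bins), 16 (134 of 1468) and 17 (97 of 1593) held the most lower bins. The most higher bins were on chromosomes 13 (50 of 1610), 4 (40 of 4189) and 7 (40 of 3446). As a share of the bins of each chromosome, 16 came first for lower bins and 13 for higher bins. By share of higher bins, 16 (26 of 1468), 19 (14 of 1086) and 20 (14 of 1252) lay above chromosome 4.

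These bins moved with coverage and with base composition. Lower bins had a median coverage of 1.57 times the median of the other lines. Of them, 32.3% lay in blocks with at least 2 times that median, against 3.98% of all bins. Higher bins had a median of 0.617, and 30.3% lay in blocks at 0.5 times or below, against 2.38% of all bins. The median GC share was 44.25% in lower bins and 37.55% in higher bins, against 39.63% in all bins. The parts of copy number and base composition in these scores were not tested. The calls also turned on the correction: from the recovered read pairs 2396 bins were lower and 2340 higher in OE33, and 68 of the 1002 lower and 20 of the 264 higher bins were among them. In the same values HCC1954 had 4848 lower and 2806 higher bins, more than OE33, SW480 712 and 924, and SNU-C1 588 and 946. A window of 480 kb in place of 1 Mb kept 584 lower and 123 higher bins.

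The lower bins farthest from the other lines lay on chromosomes 7 and 17. At 72.36 Mb of chromosome 7, beside POM121, a nucleoporin gene, and TRIM74, OE33 scored -4.14, SW480 -1.88, SNU-C1 -2.13 and HCC1954 -2.01. At 72.72 Mb, beside NSUN5 (a ribosomal RNA methyltransferase), TRIM50 and FKBP6, the scores were -3.87, -1.61, -1.91 and -1.95. Both bins lie among the segmental duplications of the Williams syndrome region, where the placement of reads is uncertain. On chromosome 17, 39.32 Mb in the cluster of keratin-associated proteins (KRTAP4-2, KRTAP4-1, KRTAP9-1) was a high point in SW480, SNU-C1 and HCC1954, at 0.77, 0.75 and 0.70, and a low point in OE33, at -1.25. The bin at 38.24 Mb, beside NR1D1 (a circadian repressor), MSL1 and CASC3, scored -2.94 in OE33 against -0.45, -0.61 and -1.41, and that at 35.60 Mb scored -1.21 against 0.33, 0.19 and 0.28. These 3 bins lie at or within the edges of the chromosome 17 gains described with the coverage.

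A lower run outside a large gain, chosen after its values were seen, lay on chromosome 3. At 56.64 Mb, beside CCDC66 and TASOR, a subunit of the HUSH silencing complex, OE33 scored -2.14 against -1.04, -1.06 and -0.98, with a coverage of 0.720 times that of the other lines. The SW480 replicates scored -1.03 and -1.05 there.

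The 5 largest differences in the other direction lay on chromosomes 16, 3, 17 and 7. A run of 12 bins on chromosome 16 (78.88 to 79.36 Mb), partly within the fragile site gene WWOX, reached 0.95 in OE33 against -0.16, -0.07 and -0.06 in SW480, SNU-C1 and HCC1954. A run of 5 bins on chromosome 3 (60.60 to 60.80 Mb), within the fragile site gene FHIT, reached 1.06 against 0.15, -0.23 and -0.04. A further bin within WWOX, at 78.48 Mb, scored 0.66 against -0.39, -0.25 and -0.27. All 3 lie in or near a run of loss in which the OE33 map held no value for most bins. On chromosome 17, a run of 9 bins (11.72 to 12.12 Mb) over ZNF18 and MAP2K4, a kinase of the JNK pathway, reached 0.74 against -0.17, -0.37 and -0.11, with a coverage of 0.729. On chromosome 7, 125.32 Mb, with no gene start nearby, scored 0.89 against 0.12, 0.07 and 0.11, with a coverage of 0.620.

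**Figure D3:**
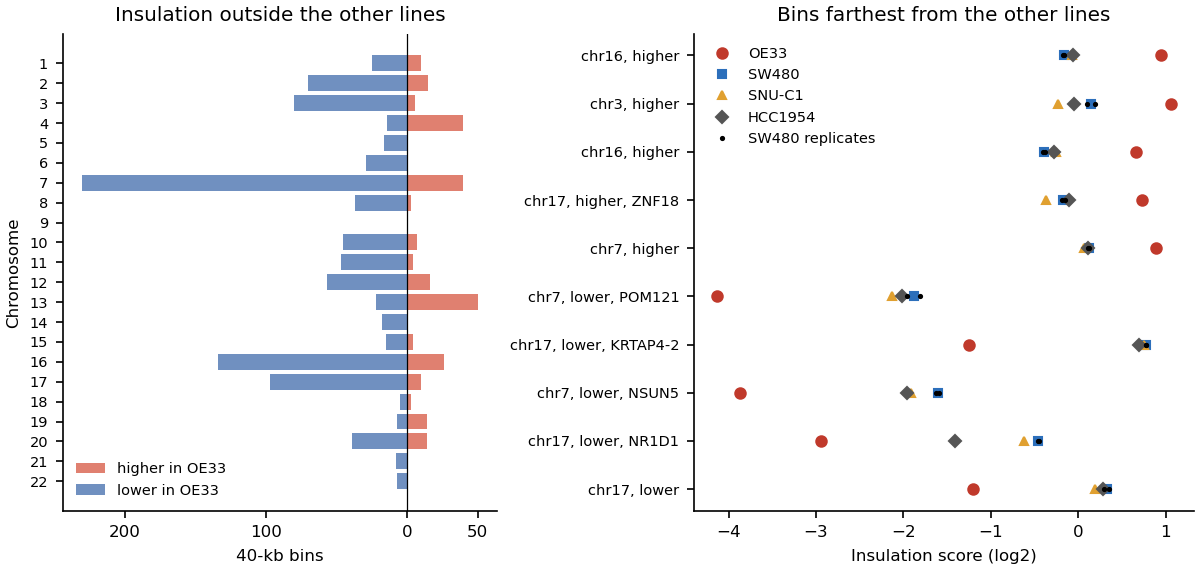
Number of 40-kb bins per chromosome whose insulation score in OE33 was at least 0.5 (log2) outside all other lines (left) and the scores of the 5 farthest bins in each direction in every map (right, named by chromosome and nearest gene where there is one). Chromosome 7 holds 230 of the lower bins, and beside POM121 OE33 stands at -4.14 and the other lines at -1.88 to -2.13.

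Fewer boundaries were called in OE33 than in the other lines. OE33 had 2254 boundaries, SW480 2431, SNU-C1 2527 and HCC1954 2457. OE33 shared 70.5% to 71.9% of its boundaries with each other line, and the other lines shared 64.1% to 65.9% of theirs with OE33. Among themselves the other lines shared 70.9% to 78.0%, and the SW480 replicates 92.5% and 93.0%. Of 1534 boundaries present in all other 3 lines, 213 (13.9%) were absent from OE33, against 6.03% absent from SW480, 4.77% from SNU-C1 and 7.24% from HCC1954 by the same rule. Boundaries present in OE33 alone were 180 (7.99%), against 5.47%, 7.68% and 7.53% in the same order.

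Many of these differences were small in the score itself. At the 213 absent boundaries the score of OE33 was above the mean of the others by a median of 0.11, and at the 180 boundaries of OE33 alone it differed by a median of -0.12. The strongest boundary of OE33 alone was at 40.04 Mb of chromosome 17, beside KLHL11, ACLY (which makes cytosolic acetyl-CoA) and ODAD4, with a score of -2.62 against -0.66, -0.80 and -0.75. It lies near the end of the largest gain. The next, at 52.16 Mb of chromosome 5 beside PELO, a ribosome rescue factor, and ITGA1, an integrin, scored -1.10 against -0.47, -0.40 and -0.72 at a coverage of 0.979. A boundary at 105.52 Mb of chromosome 12, beside WASHC4, ALDH1L2 and C12orf75, scored -0.95 against -0.32, -0.14 and -0.46 at a coverage of 0.960. The absent boundary with the largest strength in the other lines, at 28.68 Mb of chromosome 10 beside MPP7, differed little in the score itself, at -0.67 in OE33 and -0.70, -0.93 and -0.77 in the others, with a coverage of 0.983. The next was at 108.64 Mb of chromosome 4, beside PAPSS1 and SGMS2, where OE33 scored -0.29 and the others -1.005, -0.62 and -0.71. The boundaries in this paragraph were chosen after their values were seen.

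Coverage differed between arms in OE33 by more than the spread between the SW480 replicates. Coverage is the number of recovered read pairs within the chromosome per bin, over the median of the map. It is a reading of DNA copies that is also open to base composition and mappability. It cannot tell a loss in every cell from a deeper loss in some of the cells. Pairs between chromosomes, whose share was larger in OE33 than in SNU-C1 and HCC1954, are left out of it. Relative to the median of the other 3 lines, OE33 was at 0.8 or less in 7 of 39 arms (17.9%) and at the inverse of 0.8 or more in 9 (23.1%). SW480 gave 5 low and 8 high arms by the same rule, SNU-C1 5 and 5, and HCC1954 10 and 7. Between the SW480 replicates the ratio of any arm lay between 0.994 and 1.03. The SW480 map without a replicate number, which was used for the ratios, lay outside both replicates on some arms. It was at 1.021 on 21q, against 1.116 and 1.111, and at 1.338 on 20q, against 1.388 and 1.392.

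The highest ratio was that of 10q. Its coverage was 1.53 in OE33, 0.901 in SW480, 0.684 in SNU-C1 and 0.713 in HCC1954, or 2.14 times the median of the others, on 8198426 read pairs in OE33. It was followed by 16p (1.85), 19p (1.75), 22q (1.60), 20q and 20p (both 1.44), 17q (1.44), 19q (1.37) and 8p (1.33). Of these, 20q and 19q lay within the range of the other lines: 20q was at 1.93 in OE33 and 1.95 in SNU-C1, and 19q at 0.956 in OE33 and 0.991 in SW480. The lowest ratio was that of 21q, with levels of 0.510 in OE33, 1.02 in SW480, 1.20 in SNU-C1 and 0.989 in HCC1954, or 0.499 times the median of the others. The other low arms were 8q (0.625), 18p (0.640), 9p (0.719), 13q (0.742), 18q (0.768) and 3p (0.768). Of these, 8q was low only relative to SNU-C1 (1.66) and HCC1954 (1.55), and its level in OE33, 0.971, lay above that of SW480, 0.914. The level of 9p, 0.777, was likewise close to that of SW480, 0.781.

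Base composition moved with these ratios. From the fifth of bins with the lowest GC share to the fifth with the highest, coverage went from 0.862 to 1.148 in OE33. In the fifth with the highest GC share it was 0.915 in SW480, 0.773 in SNU-C1 and 0.798 in HCC1954. All 9 high arms had a GC share above the median arm. After coverage was divided by its median within GC classes, 6 arms were high and 7 low: 17q, 19p and 19q were no longer high, 18q was no longer low, and 17p became low. The ratio of 10q was then 2.01, that of 16p 1.62 and that of 21q 0.492.

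**Figure D4:**
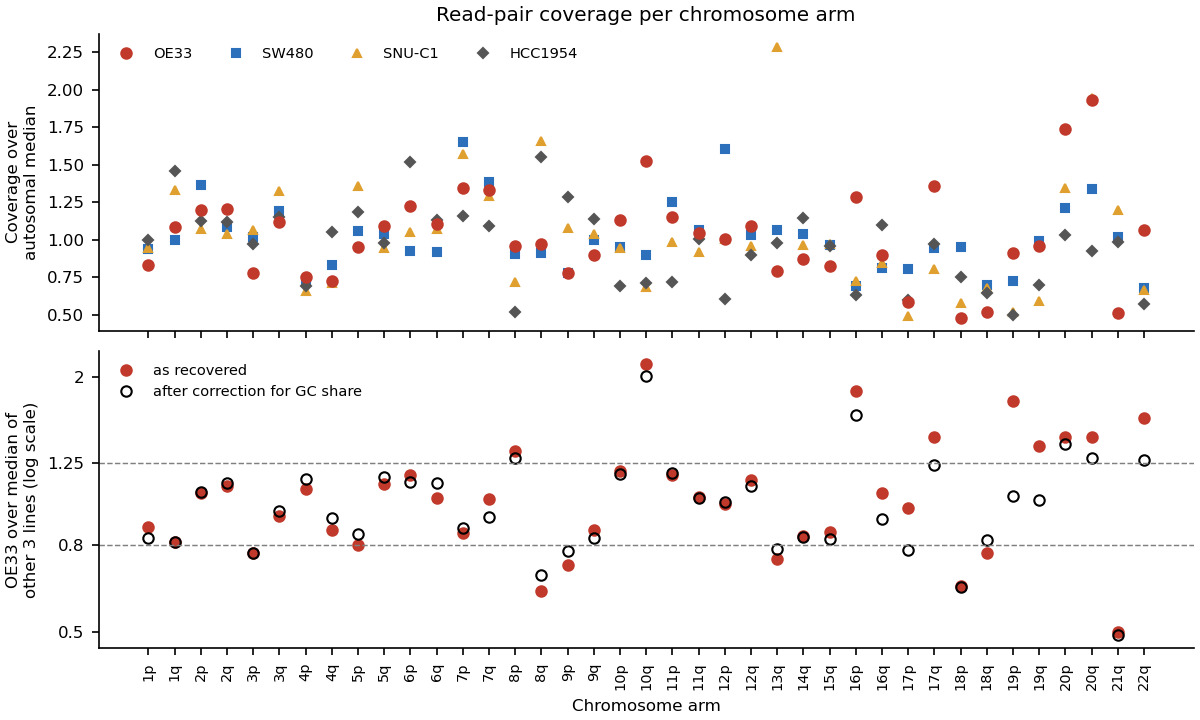
Coverage of 39 chromosome arms over the autosomal median of each map (top) and OE33 over the median of the other 3 lines on a logarithmic axis (bottom, with the limits dashed, before and after correction for GC share). The arm 10q stands at 2.14 and 21q at 0.499, and the open circles of 19p and 19q lie near 1.

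Smaller gains and losses were found on 200-kb blocks. OE33 had at least 2 times the median coverage of the other lines in 557 of 12660 blocks (4.4%), in 127 runs. It had 0.5 times that median or less in 470 blocks (3.71%), in 69 runs. SW480 gave 88 and 124 blocks, SNU-C1 542 and 88, and HCC1954 439 and 407. Blocks used the bins that were usable in SW480, SNU-C1 and HCC1954, and bins without a value in OE33 counted as 0. Bins that were low or without a value in those lines were left out, so their counts of losses cannot be set against that of OE33. After correction for GC share some of the runs in GC-rich DNA fell towards or past the limit.

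The 5 highest gains lay on chromosomes 17, 7 and 10. On chromosome 17, 39.2 to 40.2 Mb rose to 17.2 times the other lines at 39.8 to 40 Mb, with levels of 16.5 in OE33, 0.958 in SW480, 0.657 in SNU-C1 and 0.980 in HCC1954. This run holds 57 genes, with GAST (gastrin), HAP1 and JUP (junction plakoglobin) nearest to its top, and over the whole run the ratio was 15.2 before and 11.6 after correction for GC share. The run at 35.6 to 38.4 Mb rose to 14.5 times at 38.0 to 38.2 Mb, over ORMDL3, LRRC3C and GSDMA, and over the whole run the ratio was 5.73 before and 4.82 after correction. There HCC1954 was higher still, with a level of 34.7 against 14.1 in OE33, 0.973 in SW480 and 0.856 in SNU-C1. OE33 and HCC1954 thus shared a high level at 38.0 to 38.2 Mb, whereas the gain at 39.2 to 40.2 Mb was not seen in HCC1954.

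Chromosome 7 held a gain of 12.8 Mb at 107.4 to 120.2 Mb. Its median level was 4.96 in OE33, 1.27 in SW480, 1.41 in SNU-C1 and 1.35 in HCC1954, and the ratio was 4.25 after GC correction and 4.22 in read pairs between chromosomes. The top of the run lies over PPP1R3A, FOXP2 and MDFIC, and its 38 gene starts include MET, the receptor of hepatocyte growth factor, at 3.31 times the other lines. A further run at 99.6 to 102.2 Mb reached 4.52 times over GIGYF1, POP7 and EPO (erythropoietin), with levels of 3.77, 1.39, 0.834 and 0.653 in OE33, SW480, SNU-C1 and HCC1954. It is rich in GC, and over the whole run the ratio was 3.52 before and 2.12 after correction. The single block at 134.2 to 134.4 Mb of chromosome 10, over PWWP2B and INPP5A, was at 4.19 times. Its usable bins gave 3.86 before and 2.09 after correction.

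The 5 lowest losses included the longest run of all. On chromosome 13, 64.0 to 101.2 Mb, 560 of the 923 bins that were usable in the other 3 lines held no value in OE33. Over the bins with a value the ratio was 0.308, in pairs between chromosomes 0.289, and after GC correction 0.317. The run has 62 gene starts, PCDH9, a protocadherin, among those nearest its lowest block. Bins without a value are bins that the map does not list, as low-coverage bins are often left out before iterative correction, and so do not show that the DNA was absent.

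Fragile sites made up another pair of the losses. On chromosome 3, 60 to 60.4 Mb lies within FHIT, and 7 of its 10 bins held no value in OE33. The others had a ratio of 0.442, or 0.481 after correction for GC share. On chromosome 16, 78.4 to 79.0 Mb lies within WWOX, and 9 of 15 bins held none. There the others had a ratio of 0.743, or 0.732 after correction, which is not past the limit, so that call rests on the bins without a value. Only bins usable in SW480, SNU-C1 and HCC1954 were counted, so bins without a value could not occur in those lines. On chromosome 4, 171.2 to 175.8 Mb, over GALNTL6, GALNT7 and HMGB2, lacked 60 of 115 bins in OE33 and had a ratio of 0.429 over the others, or 0.470 after correction. The run that follows at 176.2 to 179.6 Mb, with VEGFC, NEIL3 and AGA, lacked 30 of 85 and had a ratio of 0.502, or 0.533. The run on chromosome 8, 41.8 to 43.6 Mb, beside the centromere with POMK, HGSNAT and POTEA, had a ratio of 0.426, or 0.404 after correction, because SNU-C1 and HCC1954 were high there: its median level was 0.924 in OE33, 0.904 in SW480, 2.55 in SNU-C1 and 2.17 in HCC1954.

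Most contacts within chromosomes that were called in OE33 alone rested on few read pairs. A pair of 200-kb blocks at least 2 Mb apart was called specific when its contact was at least 4 times the expected value, and 4 times that of every other line after 0.5 was added, on at least 10 read pairs. OE33 had 762 such block pairs of 4345121 (0.0175%), SW480 467, SNU-C1 1792 and HCC1954 1901. The count turned with the settings: it was 3308 in OE33 from the recovered read pairs (807, 5573 and 4789 in SW480, SNU-C1 and HCC1954), 4125 without a minimum of read pairs and 89 with blocks of 400 kb. Of those of OE33, 91.9% had both ends in B, against 28.8% of the block pairs tested, whereas in SW480, SNU-C1 and HCC1954 24.4%, 15.1% and 23.5% of the specific pairs did. They spanned a median of 53.6 Mb on a median of 13 read pairs, and 82.0% had under 20. Chromosomes 4 (222), 6 (100), 5 (85) and 2 (74) held the most. As a share of the block pairs tested on each chromosome, 18 came first (48, or 0.0808%), followed by 4 (0.0567%), 12 (0.0322%) and 6 (0.0318%), and chromosome 2 (0.0113%) lay below the share over all. The block pairs of OE33 joined into 649 clusters, of which 576 were single block pairs and 3 had at least 5.

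Some of the clusters with the most read pairs had genes at both ends. On chromosome 13, 27.6 to 28.0 Mb with USP12, a deubiquitinase gene, met 36.6 to 37.2 Mb with DCLK1, a kinase of microtubules, and SOHLH2. Contact at the top block pair was 20.7 times the expected value in OE33, 0.659 in SW480, 0.432 in SNU-C1 and 2.18 in HCC1954, on 315 read pairs in OE33 (95% exact Poisson interval 281 to 352, which covers counting error only). The cluster held 6 block pairs and 1107 read pairs. On chromosome 17, 38.4 to 38.6 Mb with CDC6, RARA (a retinoic acid receptor) and GJD3 met 40.4 to 40.6 Mb with STAT5A, STAT5B and STAT3, cytokine-activated factors, on 729 read pairs, at 4.53 against 0.677, 0.586 and 0.558. Its ends flank the gain at 39.2 to 40.2 Mb, and their own coverage was 1.37 and 1.23 times that of the other lines.

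A further 3 clusters spanned 8.2 to 40.2 Mb. On chromosome 14, 87.6 to 87.8 Mb met 98.0 to 98.6 Mb at 22.1 against 2.91, 1.83 and 1.54, with no gene start at either end. On chromosome 10, 35.4 to 35.6 Mb with CUL2, CREM and CCNY met 43.6 to 43.8 Mb with CSGALNACT2 and RASGEF1A, across the centromere, at 9.33 against 0.979, 1.47 and 0.933. On chromosome 15, 40.6 to 40.8 Mb with KNSTRN, IVD and BAHD1 met 80.6 to 81.0 Mb with ABHD17C at 20.9 against 0.641, 2.19 and 2.20. The other 5 of the 10 clusters with the most read pairs lay on chromosomes 6, 7, 8 and 17, had 84 to 119 read pairs and no gene start at either end.

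In the corrected maps OE33 departed less from an even spread between chromosomes than SNU-C1 and HCC1954 did. Over all pairs of autosomes, the contact over the expected value had an SD of 0.277 in OE33, 0.478 in SNU-C1 and 0.474 in HCC1954. The expected value is the mean of each map between chromosomes. Such pairs made up 35.9% of the read pairs of OE33, 14.4% of those of SNU-C1 and 19% of those of HCC1954. The part of this share in the SD and in the counts that follow was not tested. OE33 was at most 0.8 times the lower of the other lines in 12 pairs (5.19%) and past the inverse of 0.8 times the higher in 8 (3.46%), against 10 and 25 for SNU-C1 and 9 and 26 for HCC1954. From recovered read pairs, without the correction, the counts of low and high pairs were 42 and 51 in OE33, 39 and 35 in SNU-C1 and 34 and 38 in HCC1954, so OE33 then had the most, while its SD, 0.626, was still the lowest, against 0.760 and 0.704. The highest ratios were those of chromosomes 4 and 18 (0.960 against 0.658 in SNU-C1 and 0.627 in HCC1954), 3 and 11 (1.35 against 0.935 and 0.814), 2 and 10 (1.02 against 0.725 and 0.692) and 14 and 18 (1.58 against 1.14 and 0.736). Of the 12 low pairs, 11 involved chromosome 21, of 21 pairs that could, and the other was 13 and 17. Of the 8 high pairs, 4 involved chromosome 10 (with 2, 4, 6 and 7). The arms 21q and 10q also had the lowest and the highest coverage relative to the other lines, and the part of coverage in these contacts was not tested.

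Contacts between single regions of different chromosomes stood far above this level. Pairs of 1-Mb blocks on different chromosomes with at least 4 times the expected contact, and 4 times that of both other lines after 0.5 was added, numbered 1557 of 2939680 (0.053%) in OE33, 4535 in SNU-C1 and 10640 in HCC1954. Here too the part of the larger share of pairs between chromosomes in OE33 was not tested. From recovered read pairs, without the correction, the counts were 8614, 12706 and 19931, and with blocks of 2 Mb OE33 had 390. Those of the corrected map fell on 10 chromosome pairs, and 8 of these held 97.9% of them: 3 and 11 (382), 4 and 18 (283), 1 and 7 (264), 8 and 16 (219), 14 and 18 (128), 7 and 13 (99), 1 and 13 (83) and 2 and 3 (67). Of the 8 chromosome pairs with a raised mean contact, 4 were among these 10, namely 3 and 11, 4 and 18, 8 and 16, and 14 and 18.

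The cluster with the most read pairs joined chromosome 1 (59 to 92 Mb) and chromosome 7 (107 to 120 Mb), with 186 block pairs and 56353 read pairs. Its top block pair, with MYSM1, JUN (a subunit of AP-1) and FGGY at 59 to 60 Mb and MDFIC at 114 to 115 Mb, stood at 84.2 times the expected contact on 4006 read pairs in OE33 (95% exact Poisson interval 3883 to 4132). It stood at 0.340 on 2 read pairs in SNU-C1 and at 0.503 on 4 in HCC1954. In a Hi-C map, a junction between chromosomes gives contact that is highest beside it, and junctions themselves were not read here.

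Chromosome 7 took part in 3 of the 5 largest clusters, each time through the gained stretch of 107 to 120 Mb. Chromosome 5 at 0 to 4 Mb met it at 69.6 times the expected contact, against 1.01 in SNU-C1 and 1 in HCC1954, with IRX2, a homeobox gene, at one end and TFEC, TES and CAV2 at the other. Chromosome 13 at 101 to 114 Mb met it at 16.0 times, against 1.86 and 1.17, between PNPLA8, THAP5 and DNAJB9 on the one side and NALF1, LIG4 (a ligase of DNA break repair) and ABHD13. That stretch of chromosome 13 begins where the low run of 64.0 to 101.2 Mb ends. The coverage of the chromosome 7 ends was 3.57 to 3.72 times that of the other lines, whereas those of chromosomes 1, 5 and 13 were at 0.941, 1.10 and 0.681.

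The other 2 of the 5 largest had ends with a coverage of 0.719 to 1.43 times that of the other lines. Chromosome 8 at 106 to 125 Mb met chromosome 16 at 46 to 62 Mb at 118.7 times the expected contact on 1788 read pairs, against 1.13 in SNU-C1 and 0.726 in HCC1954, with no gene start in either top block. Chromosome 3 at 115 to 125 Mb met chromosome 11 at 90 to 109 Mb at 92.3 times on 1604 read pairs, against 1.03 and 0.277, between GAP43, a gene of growing axons, and POGLUT3, EXPH5 and DDX10. The next cluster, of chromosome 4 at 180 to 191 Mb and chromosome 18, stood at 37.9 times on 175 read pairs, with 0 read pairs in SNU-C1 and 3 in HCC1954. It begins on chromosome 4 just beyond the low runs that end at 179.6 Mb.

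**Figure D5:**
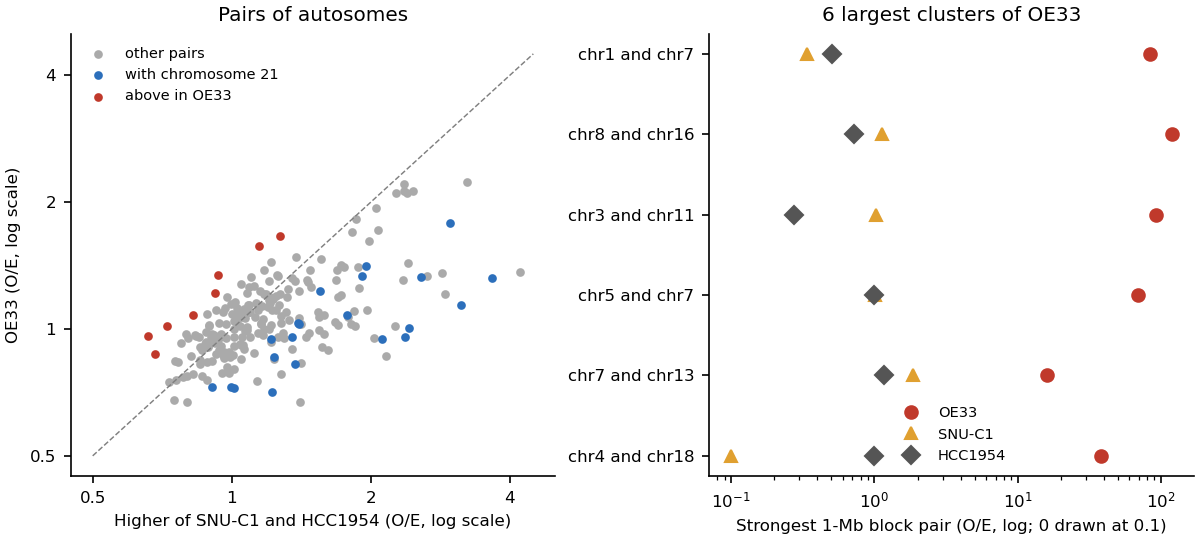
Contact of all pairs of autosomes in OE33 against the higher of SNU-C1 and HCC1954 (left, observed over expected, logarithmic axes, equality dashed) and of the strongest block pair in each of the 6 largest clusters (right, logarithmic axis). Pairs with chromosome 21 (blue) lie below equality, 8 pairs are marked in red, and the clusters stand at 16.0 to 118.7 in OE33 and below 2 in the other lines.

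Genes of esophageal adenocarcinoma and its tissues were read at the bin of their start. Of all protein-coding genes measured, 8.04% lay in blocks with at least 2 times the median coverage of the other lines and 1.38% in blocks at 0.5 times or less. A bin with lower insulation held 4.65%, and one with higher insulation 0.18%. The share of all scored genes in A was 74.5% in OE33, 79.4% in SW480, 74.6% in SNU-C1 and 76.1% in HCC1954. In OE33 alone 0.331% had changed to A and 1.14% to B, so lists of this size would hold few or none, and none of the 6 lists held one. Among 18 genes recurrently amplified in this cancer, 3 were gained. ERBB2, a receptor tyrosine kinase, and its neighbour GRB7, an adaptor protein, had a level of 4.86 in OE33, 0.949 in SW480, 0.789 in SNU-C1 and 23.7 in HCC1954, and MET had 6.14, 1.86, 1.74 and 1.85. KLF5, a factor of gut epithelium, was instead in the low run of chromosome 13, at 0.446 against 1.87, 2.71 and 1.63. Levels of EGFR (1.46 against 1.67, 1.51 and 1.04) and GATA6 (0.898 against 1.19, 0.821 and 1.01) were near those of the other lines. CCNE1 (0.833 against 0.658, 0.560 and 0.723) lay above them, at 1.265 times their median. FGFR2, GATA4 and VEGFA were at 1.96, 1.80 and 1.73 times that median, short of the limit for a gain. MYC, at 0.561 times, was short of that for a loss. Its level was 1.955 in OE33, 7.57 in SW480, 2.05 in SNU-C1 and 3.48 in HCC1954, so the low ratio was set by the high levels of those lines.

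Insulation at ERBB2 was -1.47 in OE33, -0.11 in SW480, -0.09 in SNU-C1 and -0.82 in HCC1954, and at GRB7 -1.56, -0.15, -0.20 and -0.87. The lines with a gain there had the lower scores. Of 7 genes often lost or mutated, RUNX1, a transcription factor on 21q, was called low, at 0.609 against 1.28, 1.17 and 1.40. CDKN2A, the p16 locus, was at 0.928 against 1.11, 1.20 and 1.45, and SMAD4 at 0.584 against 0.798, 0.666 and 0.716, neither past the limit.

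Of 9 genes at common fragile sites, IMMP2L lay in the chromosome 7 gain, at 5.76 against 1.69, 1.64 and 1.27. The starts of FHIT and WWOX, at 0.717 and 0.780, lay outside the stretches without values described above. All 9 starts were in B in OE33, SNU-C1 and HCC1954 and 8 of 9 in SW480, whereas 74.5% of all genes were in A in OE33.

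Of 28 columnar and intestinal genes with a score, 22 (78.6%) were in A in OE33, 20 (71.4%) in SW480, 22 in SNU-C1 and 20 in HCC1954. HNF4G, a nuclear receptor of intestine, was low at 0.786 against 0.850, 1.64 and 1.61, a ratio set by the gains of SNU-C1 and HCC1954. ANXA10, a gastric annexin, was in A in OE33 (0.90) and HCC1954 (0.74) and in B in SW480 (-0.65) and SNU-C1 (-1.17).

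Squamous genes held 3 of the gains. KRT13 and KRT14, keratins of stratified epithelium that lie in the same gain, were both at 14.9 in OE33, with KRT14 at 0.985, 0.766 and 1.02 in SW480, SNU-C1 and HCC1954. Insulation at KRT14 was -1.24 in OE33 and -0.36, -0.33 and -0.33 in the others. ZNF750, a factor of squamous differentiation on 17q, was at 1.19 against 0.578, 0.417 and 0.723. Its run, at 80 to 81 Mb, had a ratio of 2.12, and of 1.45 after correction for GC share. Of 15 squamous genes, 14 (93.3%) were in A in OE33, 12 (80%) in SW480, 11 (73.3%) in SNU-C1 and 13 (86.7%) in HCC1954, beside 74.5% to 79.4% of all genes. Of 8 mammary genes 5 (62.5%) were in A in OE33, 2 in SW480, 4 in SNU-C1 and 5 in HCC1954, with no gain, loss or insulation call. GATA3, a factor of luminal breast cells, scored 0.58 in OE33 and 0.54 in HCC1954 and -0.33 and -0.82 in SW480 and SNU-C1. FOXI1 split in the same way, at 0.41 and 0.95 against -0.30 and -1.09. In contrast, TRPS1 was in B in OE33 (-0.44) and in A in HCC1954 (1.01). ELF5 was in A in OE33 (1.26) and in B in HCC1954 (-0.91), but lies on 11p, where the scores of some lines correlated below 0.5. The remaining genes of the list had the same sign in all lines.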

How the data were processed

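The authors aligned in situ Hi-C reads to hg19 with BWA, removed duplicates with Picard and applied iterative correction. The deposited signal is a corrected contact frequency for each pair of 40-kb bins. Tool versions, and how low-coverage bins were treated, were not given in the labels or methods.

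Read pairs were recovered by fitting a factor to each bin (45 iterations), and 100% of tested values of OE33, SNU-C1 and HCC1954 and 99.8% of SW480 came out whole within 0.02. Pairs within a bin were left out. Expected contact was the mean at each distance over usable bins of each map, or the mean over chromosome pairs. Insulation used a window of 1 Mb, a delta of 200 kb and a minimum strength of 0.1. Boundaries within 1 bin were shared, and one was present alone or absent where none lay within 3 bins. A compartment switch needed a score difference of at least 0.5 (score SD of 1), and strength used the extreme 20% of blocks. Python 3.11.15, NumPy 2.4.6 and SciPy 1.17.1 were used, and the scripts were tested on simulated data. Genes were taken from GENCODE 44 on GRCh37.

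Members and lists were chosen with earlier results of these data known. Named genes were list members and, up to 3 an end, those at the top clusters, bins, runs, gains and losses. Counting intervals cover counting error only. With 1 map a line no test was made.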

Additional observations from a re-analysis of the deposited data

How the results depend on the processing

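Of 72 alternatives counted, 53 left a count within 1.5 times that reported, or another value within the SD of the SW480 replicates. The other 19 did not. The 53 include sharing boundaries within 2 bins, which could not change the number of boundaries of OE33 alone, since that number does not use the sharing distance. No paired analysis was possible because OE33, SNU-C1 and HCC1954 had 1 map each. The share of contacts over 20 Mb (13.6%) and the compartment strength (6.90) come from the OE33 map alone, so leaving out an SW480 replicate cannot change them and says nothing of their stability. With either SW480 replicate in place of the map without a replicate number, high arms numbered 9 and low arms 7. Specific block pairs then numbered 834 to 896, boundaries of OE33 alone 177 to 183 and absent boundaries 205 to 212. Lower bins numbered 1004, higher bins 260 to 261, switches to B 132 to 133 and to A 82 to 84. From recovered read pairs, without the correction, the share over 20 Mb was 13.3%, specific block pairs numbered 3308, lower bins 2396 and higher bins 2340, strength was 5.85, switches to A 222, high chromosome pairs 51, low ones 42, and specific block pairs between chromosomes 8614. The strength and switches from read pairs were added after seeing the data, as were the GC correction and the setting without the 5 arms with unlike scores (strength 6.93). All bins gave 13.7% over 20 Mb. Blocks of 400 kb gave 89 specific block pairs and 90 switches to B, and blocks of 2 Mb gave 390 between chromosomes. Without a minimum of read pairs 4125 block pairs were specific. A minimum score difference of 1 left 52 switches to B and 28 to A. The strength was 9.16 with extremes of 10% and 6.93 with maps thinned to equal numbers of read pairs within chromosomes, which leaves unequal the share of pairs between chromosomes and the spread over distances, and it was the highest of the 4 lines in every setting in which it was computed. Specific block pairs within chromosomes numbered 524 with an expected value for each chromosome and 751 with the thinned maps. The causes of these shifts were not tested.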
